A study of Mus musculus with 4 samples.

Results

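The genes described here are 10 transcripts that RAS and ERK signalling induces: the phosphatases Dusp4, Dusp5 and Dusp6, the inhibitors Spry1, Spry2, Spry4, Spred1 and Spred2, and the transcription factors Etv4 and Etv5. They were chosen by gene symbol, all 10 were among the 24391 genes of each count file, and all 10 passed the filter on low counts, which 16001 genes passed. RNA was sequenced from 4 mouse lung tumour samples in 2 groups of 2. The group labelled K-Ras carried K-RasLSL-G12D, an oncogenic allele held silent by a lox-flanked stop until Cre recombinase removes it. The group labelled K-Ras Mll4-/- carried the same allele together with Mll4fl/fl, floxed alleles of a histone H3 lysine 4 methyltransferase now named Kmt2d. The Cre source and the age of the mice are not given in the sources used here, and the labels do not say whether the replicates were separate mice, so the spread between them may be technical. Tumours had been digested with collagenase, DNase and trypsin, and cells carrying the leukocyte antigen CD45 had been depleted with magnetic beads.

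ERK, the last kinase of the RAS, RAF and MEK cascade, switches on its own inhibitors. Dusp4 and Dusp5 encode nuclear phosphatases and Dusp6 a cytoplasmic one, and each removes the activating phosphates from ERK. Sprouty proteins act between receptor tyrosine kinases and RAF, and Spred proteins bring the RAS GTPase-activating protein neurofibromin to the membrane. Etv4 and Etv5 belong to the PEA3 group of ETS transcription factors, which carry the signal to target genes, and Etv5 is also known for its part in maintaining alveolar type 2 cells of the lung.

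Reads assigned to genes numbered 26683033 to 36677987 per sample, so that 3 reads, taken as the smallest detectable number, were worth 0.0818 to 0.112 CPM, a floor for counting error only. CPM are read counts brought to a common library size, here with TMM factors, which correct for differences in library composition. Alveolar type 2 markers were abundant in every sample, with summed levels from 20015 to 32918 CPM over 11 genes. Leukocyte transcripts were still present after the bead step. Ptprc, which encodes CD45, was at 269 and 171 CPM in the K-Ras Mll4-/- samples and at 274 and 143 CPM in the K-Ras samples. K-Ras replicate 2 stood apart in airway transcripts: its 8 ciliated cell markers summed to 855 CPM against 84.4 to 151 CPM in the other samples, and its 7 club cell markers to 3829 CPM against 666 to 842 CPM. Kmt2d was at 367 and 317 CPM in the K-Ras Mll4-/- samples and 395 and 526 CPM in the K-Ras samples, a log2 fold change of -0.43 (SE 0.21, edgeR quasi-likelihood adjusted p = 0.302) that was -0.10 with offsets for GC content and length. A count over the whole gene cannot show which exons were lost, so the deletion is taken from the labels.

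Calls were made at an adjusted p under 0.05. With the edgeR quasi-likelihood test none of the 10 genes was called, against 0.0375% of all genes tested. DESeq2 called 2 of the 10, Dusp4 and Spred1, both higher in K-Ras Mll4-/- tumours, against 10.3% of the genes to which it gave an adjusted p (5.21% higher, 5.12% lower). The edgeR likelihood ratio test called 1, Dusp4, against 9.39% of all genes and 4.85% in that direction, and limma-voom called 0. At an unadjusted quasi-likelihood p under 0.05 there were 3, Dusp4, Spred1 and Etv4, all higher, against 21.8% of all genes in either direction with 11.4% higher and 10.4% lower. The K-Ras Mll4-/- values lay above both K-Ras values for 5 genes (Dusp4, Spred1, Etv4, Spred2 and Spry1) and below both for 2 (Spry4 and Etv5), against 29.9% and 28.5% of all genes, or 58.3% in either direction. Of the 10 log2 fold changes, 7 were positive, against 48.8% over all genes, and the median was 0.27, against -0.01 over all genes. Without K-Ras replicate 2 there were 7 positive values with a median of 0.41, and without K-Ras replicate 1 there were 6 with a median of 0.14. The 10 genes together summed to 1077 and 1246 CPM in the K-Ras Mll4-/- samples and to 862 and 1047 CPM in the K-Ras samples. With 2 samples in each group the smallest two-sided p of an exact permutation test is 0.333, so none was run on single genes.

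**Figure D1:**
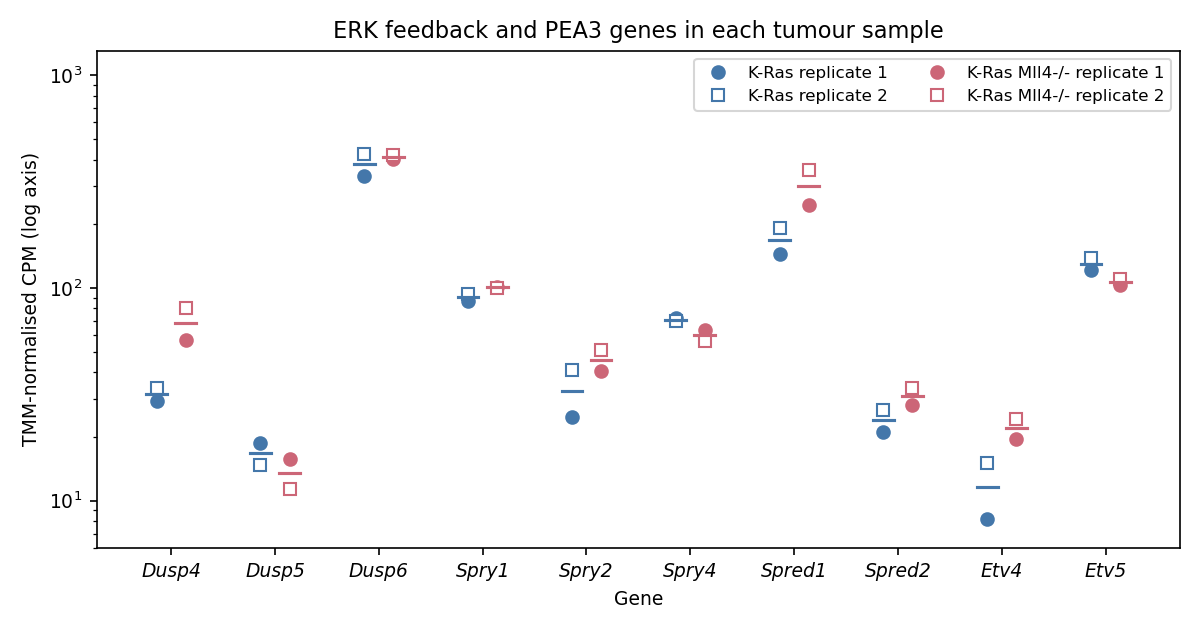
TMM-normalised CPM (log axis) of the 10 genes in each sample, with K-Ras in blue and K-Ras Mll4-/- in red, circles for replicate 1, open squares for replicate 2, and a bar at each group mean. Dusp4, Spred1 and Etv4 show the widest separation of the groups, with Dusp4 at 29.3 and 33.9 CPM in K-Ras and at 56.6 and 80.8 CPM in K-Ras Mll4-/- tumours.

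Promoter sequences were available for 7 of the 10 genes, in 8 windows of 250 bases before an annotated start (RefSeq, GRCm38.p6), and 3 are shown. Dusp6 was the most abundant transcript per kilobase, Spred1 had the largest positive log2 fold change and Dusp5 the lowest log2 fold change among the genes with an entry. Capitals mark the ETS core letters GGAA on either strand, which appear as GGAA or TTCC. The Dusp6 window is chr10:99262981-99263230, the Spred1 window chr2:117120821-117121070 and the Dusp5 window chr19:53528895-53529144, all on the plus strand and printed 5′ to 3′. The reads were counted on mm9, an older build.
Dusp6: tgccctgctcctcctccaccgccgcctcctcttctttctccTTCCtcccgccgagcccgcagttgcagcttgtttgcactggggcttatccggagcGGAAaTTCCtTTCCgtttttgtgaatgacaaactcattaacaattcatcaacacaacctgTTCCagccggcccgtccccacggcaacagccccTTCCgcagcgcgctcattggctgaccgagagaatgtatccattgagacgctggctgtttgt
Spred1: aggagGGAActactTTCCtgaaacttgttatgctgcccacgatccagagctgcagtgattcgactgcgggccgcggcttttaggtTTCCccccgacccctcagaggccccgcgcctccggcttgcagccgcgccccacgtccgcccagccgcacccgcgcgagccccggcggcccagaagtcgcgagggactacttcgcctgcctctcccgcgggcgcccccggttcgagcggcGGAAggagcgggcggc
Dusp5: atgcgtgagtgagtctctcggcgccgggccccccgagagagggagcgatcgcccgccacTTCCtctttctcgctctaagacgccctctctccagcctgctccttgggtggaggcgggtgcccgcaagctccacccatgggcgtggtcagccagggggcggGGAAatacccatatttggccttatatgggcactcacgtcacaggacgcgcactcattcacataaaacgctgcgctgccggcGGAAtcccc
The Dusp6 window held 6 matches to GGAA, the Spred1 window 4 and the Dusp5 window 3. Such a short word is common: 93.4% of 32851 promoter windows of this length held at least 1, as did 7 of the 8 windows of these genes. The longer ETS word CCGGAA, the AP-1 word TGANTCA and the E-box CACGTG, searched on both strands, were in 0 of the 8 windows, against 12.03%, 6.75% and 6.02% of all windows. Each CCGGAA match is also a GGAA match. No measurement in these data bears on binding at these sites.

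Among the phosphatases, Dusp4 was higher and Dusp6 and Dusp5 overlapped between the groups. Dusp4, the inducible nuclear phosphatase of ERK, JNK and p38, was at 56.6 and 80.8 CPM in K-Ras Mll4-/- tumours (1486 and 2604 reads) and at 29.3 and 33.9 CPM in K-Ras tumours (897 and 1224 reads). The lower K-Ras Mll4-/- sample was thus well above the higher K-Ras sample. The group means were 68.7 ± 17.1 and 31.6 ± 3.21 CPM (SD, n = 2 each). This is a log2 fold change of 1.12 (SE 0.22, edgeR quasi-likelihood adjusted p = 0.150, DESeq2 adjusted p = 0.00308). With 1 sample left out it lay between 0.83 and 1.36.

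Dusp6, the cytoplasmic phosphatase specific to ERK, was at 404 and 422 CPM in K-Ras Mll4-/- tumours and at 337 and 424 CPM in K-Ras tumours. The highest and the lowest value both came from the K-Ras group, so the groups overlapped. Its log2 fold change was 0.12 (SE 0.18, edgeR quasi-likelihood adjusted p = 0.733), and without K-Ras replicate 1 it turned to -0.035. Dusp6 had 10290 to 15333 reads per sample. Dusp5, a nuclear phosphatase specific to ERK, was at 15.6 and 11.3 CPM in K-Ras Mll4-/- tumours and at 18.7 and 14.7 CPM in K-Ras tumours. These values interleave, and the log2 fold change was -0.31 (SE 0.25, edgeR quasi-likelihood adjusted p = 0.495), and -0.56 and -0.11 were its extremes with 1 sample left out.

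Of the Sprouty genes, Spry2 had the largest positive difference and Spry4 a negative one. Spry2, an inhibitor of receptor tyrosine kinase signalling, was at 40.8 and 51.2 CPM in K-Ras Mll4-/- tumours and at 24.6 and 40.98 CPM in K-Ras tumours. The higher K-Ras sample reached the lower K-Ras Mll4-/- sample. The log2 fold change of 0.49 (SE 0.29, edgeR quasi-likelihood adjusted p = 0.383) was 0.17 without K-Ras replicate 1 and 0.89 without K-Ras replicate 2. Spry1, known as a brake on FGF and other growth factor receptors, was at 101 and 99.8 CPM in K-Ras Mll4-/- tumours and at 86.7 and 93.5 CPM in K-Ras tumours. The groups were separate but close, and the log2 fold change was 0.16 (SE 0.12, edgeR quasi-likelihood adjusted p = 0.475). Spry4, which acts on FGF and VEGF receptor signalling, was at 63.1 and 56.5 CPM in K-Ras Mll4-/- tumours and at 72.4 and 69.5 CPM in K-Ras tumours. Both K-Ras Mll4-/- samples were the lower ones, and the log2 fold change was -0.25 (SE 0.13, edgeR quasi-likelihood adjusted p = 0.320).

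Both Spred genes were higher in K-Ras Mll4-/- tumours, Spred1 by more. Spred1, whose human counterpart is mutated in Legius syndrome, was at 245 and 356 CPM in K-Ras Mll4-/- tumours (6427 and 11478 reads) and at 144 and 190 CPM in K-Ras tumours (4400 and 6875 reads). The groups did not overlap, and their means were 300 ± 78.7 and 167 ± 32.8 CPM (SD, n = 2 each). The log2 fold change was 0.85 (SE 0.26, edgeR quasi-likelihood adjusted p = 0.192, DESeq2 adjusted p = 0.0495), and it was 0.54 without K-Ras Mll4-/- replicate 2. Spred2, its close relative, was at 28.2 and 33.7 CPM in K-Ras Mll4-/- tumours and at 21.1 and 26.8 CPM in K-Ras tumours. The gap between the groups was narrow, and the log2 fold change was 0.37 (SE 0.19, edgeR quasi-likelihood adjusted p = 0.321), or 0.21 without K-Ras replicate 1.

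Etv4 and Etv5, the PEA3 factors among the 10 genes, differed in opposite directions. Etv4 was at 19.5 and 24.2 CPM in K-Ras Mll4-/- tumours (513 and 779 reads) and at 8.18 and 15.0 CPM in K-Ras tumours (250 and 541 reads). Both K-Ras Mll4-/- samples were the higher ones, but the K-Ras samples differed 1.83-fold between themselves. The log2 fold change was 0.92 (SE 0.34, edgeR quasi-likelihood adjusted p = 0.229), and it was 0.55 without K-Ras replicate 1 and 1.41 without K-Ras replicate 2. Etv5 was at 103 and 110 CPM in K-Ras Mll4-/- tumours and at 121 and 138 CPM in K-Ras tumours. As for Spry4, both K-Ras Mll4-/- samples were the lower ones, and the log2 fold change was -0.28 (SE 0.14, edgeR quasi-likelihood adjusted p = 0.300). The sign of each of the 10 log2 fold changes was the same under the other scalings run, which were DESeq2 size factors, the upper quartile, total counts, and offsets for GC content and length.

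**Figure D2:**
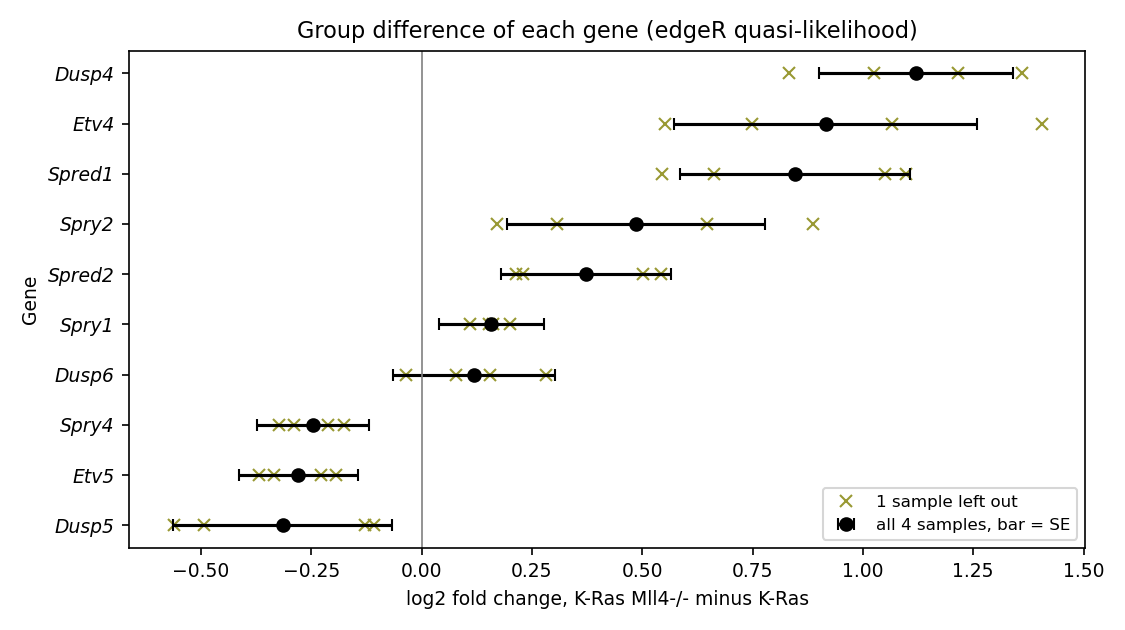
Log2 fold change of each gene, K-Ras Mll4-/- minus K-Ras, with its SE (black) and the value with each sample left out in turn (crosses). Dusp4, Etv4 and Spred1 stay above 0.5 in every case, and Dusp6 has crosses on both sides of 0.

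Ratios of related genes within a sample do not depend on library scaling, and 8 pairs were set side by side, chosen after the values of the single genes were seen and therefore not tested. The Etv4 reads amounted to 0.189 and 0.219 of the Etv5 reads in K-Ras Mll4-/- tumours and to 0.0676 and 0.108 in K-Ras tumours. The balance of Etv4 and Etv5 thus lay further towards Etv4 in both K-Ras Mll4-/- samples, by 2.38-fold. The ratio of Dusp4 to Dusp6 reads was 0.140 and 0.191 in K-Ras Mll4-/- tumours against 0.0872 and 0.0798 in K-Ras tumours, 1.96-fold higher. The ratio of Dusp4 to Dusp5 reads, both nuclear phosphatases, was 3.62 and 7.15 against 1.57 and 2.30. The ratio of Spry2 to Spry4 reads was 0.645 and 0.906 against 0.340 and 0.590. In 7 of the 8 pairs the groups did not overlap, and the exception was Dusp5 to Dusp6, at 0.0387 and 0.0267 against 0.0557 and 0.0347. Of all single genes, 58.3% did not overlap in either direction, and no such share was computed over all pairs. The pairs reuse the same genes and are not independent.

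**Figure D3:**
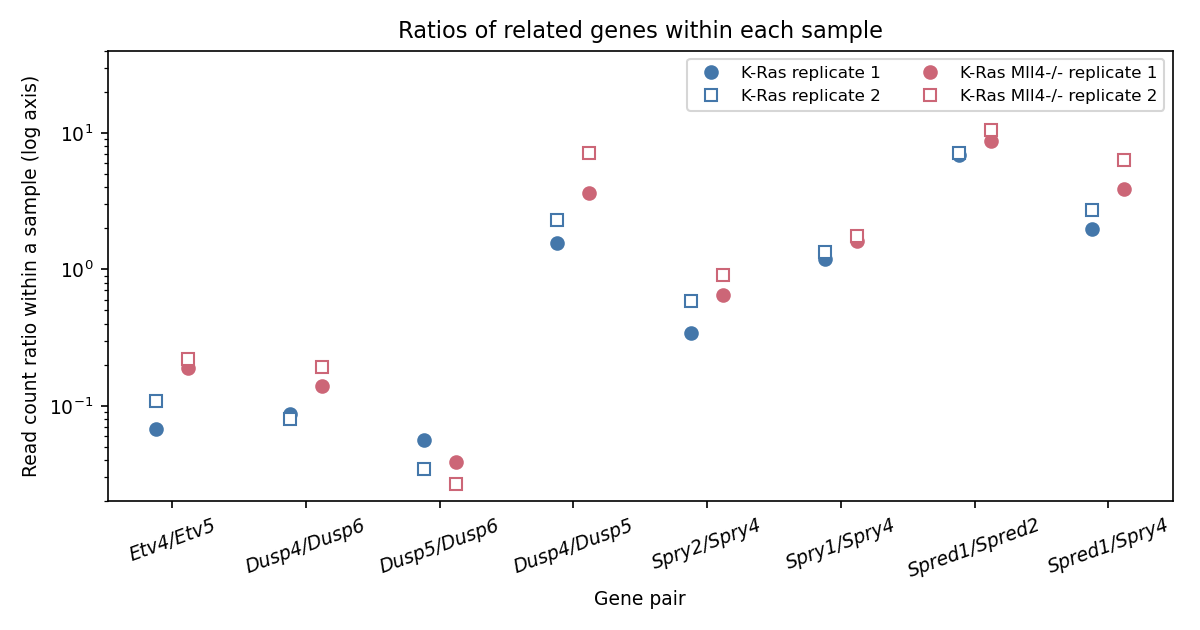
Ratio of read counts of gene pairs within each sample (log axis), with K-Ras in blue and K-Ras Mll4-/- in red, circles for replicate 1 and open squares for replicate 2. The ratio of Etv4 to Etv5 is 0.0676 and 0.108 in K-Ras and 0.189 and 0.219 in K-Ras Mll4-/- tumours.

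Levels were compared between genes per kilobase of the longest GENCODE M21 transcript, since the annotation used for counting is not given in the sources used here. Dusp6 led in every sample, at 120 to 152 CPM per kilobase, and its lowest sample was above the highest sample of any of the other genes. Spred1 (23.9 to 59.2), Spry1 (31.3 to 36.5) and Etv5 (26.0 to 34.7) followed, and neighbours in this order overlapped. Spry2 (11.8 to 24.5), Dusp4 (10.7 to 29.5) and Spry4 (11.9 to 15.2) came next by median, again with overlap between neighbours. The highest Dusp4 sample was also above the lowest samples of Etv5 and Spred1, and the highest Spry2 sample above the lowest of Spred1. Etv4 (3.41 to 10.1), Spred2 (4.73 to 7.58) and Dusp5 (4.57 to 7.58) were lowest and also overlapped.

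The wider pathway was read from 7 lists grouped by known function and chosen with earlier results of these data known. No gene of these lists was called by the edgeR quasi-likelihood test or by limma-voom. DESeq2 called 29 (15 higher, 14 lower) and the likelihood ratio test 27, of 109 genes that passed the count filter. Over all genes DESeq2 called 10.3% of those with an adjusted p (5.21% higher, 5.12% lower), and the likelihood ratio test 9.39%. At an unadjusted quasi-likelihood p under 0.05, 19 of these were higher and 20 lower, against 11.4% and 10.4% of all genes. The same shares over all genes apply to the counts of each list below. The other MAP kinase phosphatases had a median log2 fold change of -0.18, with 2 of 10 higher, or 4 with GC and length offsets, and 3 lower at an unadjusted p under 0.05. With 1 sample left out the median lay between -0.37 and -0.069 (without K-Ras Mll4-/- replicates 1 and 2 respectively), with 3 or 4 of the 10 higher. Dusp1, an immediate early nuclear phosphatase, was at 144 and 99.7 CPM in K-Ras Mll4-/- tumours and at 247 and 282 CPM in K-Ras tumours. Dusp1 and Dusp4 thus differed in opposite directions, with log2 fold changes of -1.12 (SE 0.23, edgeR quasi-likelihood adjusted p = 0.153) and 1.12. Ptpn5, a tyrosine phosphatase best known from neurons, was the other gene with a large difference (log2 fold change -1.24, SE 0.47) but was at most 1.27 CPM.

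Of the other Sprouty, Spred and inhibitor genes, 12 of 13 passed the filter and 3 were higher, or 2 with upper quartile scaling, total counts or the offsets, with a median of -0.24. This median was -0.48 without K-Ras replicate 1 and -0.056 without K-Ras replicate 2. Spry3 had 0 reads in every sample. Spred3, the third Spred gene, was at 4.72 and 4.28 CPM in K-Ras Mll4-/- tumours and at 13.9 and 10.7 CPM in K-Ras tumours. Its log2 fold change of -1.45 (SE 0.25, edgeR quasi-likelihood adjusted p = 0.147) was opposite in sign to those of Spred1 and Spred2. Rasal1, a RAS GTPase-activating protein, was at most 3.27 CPM, with a log2 fold change of -1.02 (SE 0.43).

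Of the other ETS factors, 17 of 18 passed the filter, with a median of -0.21, 6 higher (5 with the offsets) and 3 of these at an unadjusted p under 0.05. Without K-Ras replicate 1 the median was -0.072 and 8 were higher. Ehf, an epithelial ETS factor, was at 176 and 275 CPM in K-Ras Mll4-/- tumours and at 84.5 and 114 CPM in K-Ras tumours, a log2 fold change of 1.18 (SE 0.29, edgeR quasi-likelihood adjusted p = 0.168). Its values separated the groups in the same direction as Etv4. Spdef, the ETS factor of goblet cells, was at most 1.41 CPM, with a log2 fold change of -1.85 (SE 0.77).

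The 18 genes of the cascade from adaptor to ERK had a median log2 fold change of 0.13. Of them 14 were higher, 13 with the offsets and 11 with upper quartile or total count scaling. Ksr1, a scaffold of the cascade, was at 22.0 and 22.6 CPM against 30.3 and 31.4 CPM, with a log2 fold change of -0.47 (SE 0.13).

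Receptors and ligands upstream spread widely in both directions, with 10 of 23 higher and a median of -0.20, which turned to 0.12 without K-Ras replicate 1. Ereg, which encodes the EGF receptor ligand epiregulin, was at 129 and 201 CPM in K-Ras Mll4-/- tumours and at 13.4 and 38.3 CPM in K-Ras tumours, a log2 fold change of 2.67 (SE 0.58, edgeR quasi-likelihood adjusted p = 0.157, DESeq2 adjusted p = 8.57e-06). Areg, the amphiregulin gene, was at 215 and 310 CPM against 57.0 and 130 CPM (log2 fold change 1.49, SE 0.46, edgeR quasi-likelihood adjusted p = 0.192). For both ligand genes the groups did not overlap, as for 58.3% of all genes, 29.9% in that direction.

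The 14 other ERK-induced transcripts that passed the filter had a median log2 fold change of 0.80, which was 0.47 without K-Ras replicate 1 and 0.48 without K-Ras Mll4-/- replicate 2. Of them 10 were higher, 6 at an unadjusted p under 0.05 and the same number by DESeq2, and 0 were lower by either. Over all genes 11.4% were higher at that p, and 5.21% were called higher by DESeq2. Epha4, an ephrin receptor, was at 122 and 219 CPM in K-Ras Mll4-/- tumours and at 62.8 and 61.4 CPM in K-Ras tumours, a log2 fold change of 1.46 (SE 0.31, edgeR quasi-likelihood adjusted p = 0.156). Il1rl1, the receptor of interleukin-33, went the other way at -1.48 (SE 0.86), resting on 48.3 CPM in K-Ras replicate 1 against 7.14 to 13.4 CPM in the other samples.

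Immediate early and stress genes, which tissue digestion is known to induce, had a median log2 fold change of -0.77, opposite in sign to that of the feedback genes. They are listed apart from the other ERK-induced transcripts, whose median of 0.80 therefore does not stand for every transcript that ERK induces. Of 15 genes 14 were lower, all 15 with scaling by DESeq2 size factors, the upper quartile or total counts, and 13 with the offsets. Without K-Ras replicate 2 the median was -0.45 and 4 were higher. The 8 genes with an unadjusted p under 0.05 were all lower. The summed level of all 15 genes was 2076 and 1746 CPM in K-Ras Mll4-/- tumours and 2505 and 3847 CPM in K-Ras tumours. Atf3, a stress-induced transcription factor, was at 48.7 and 37.8 CPM against 68.3 and 141 CPM (log2 fold change -1.28, SE 0.39). Fosb, an AP-1 subunit, was at 71.5 and 62.3 CPM against 103 and 187 CPM (log2 fold change -1.12, SE 0.32). The part of digestion in the values of the feedback genes was not tested.

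**Figure D4:**
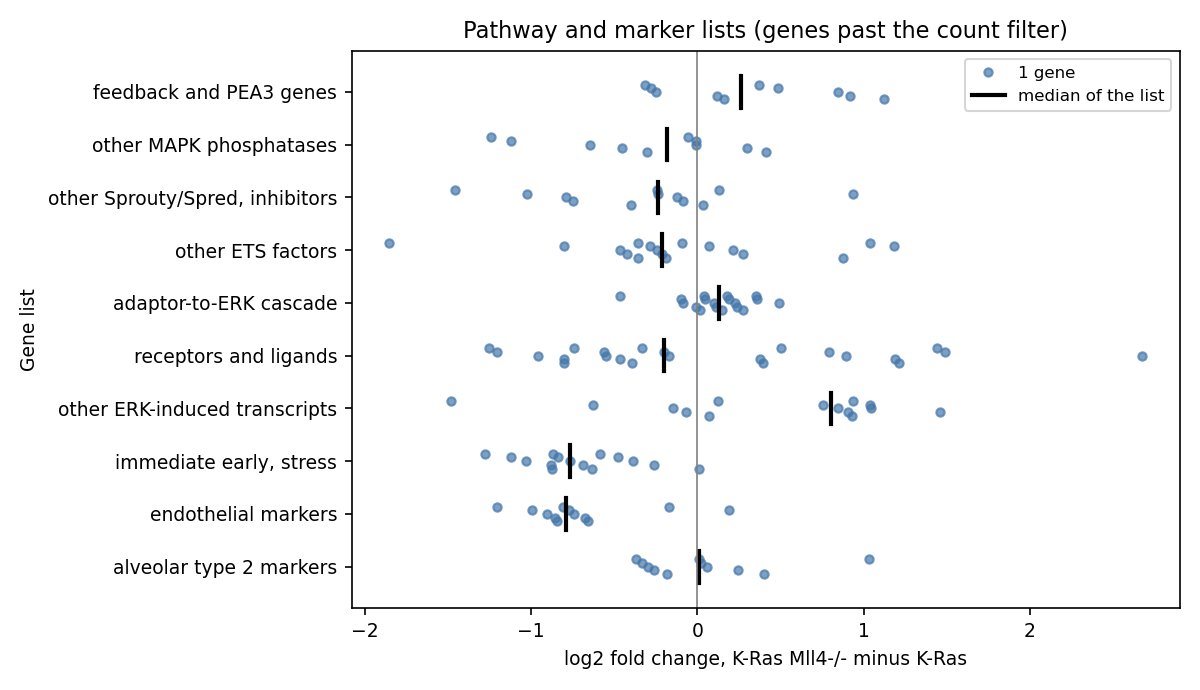
Log2 fold change (K-Ras Mll4-/- minus K-Ras) of each gene that passed the count filter, by list, with the median of each list as a black bar. The feedback and PEA3 genes have a median of 0.27, the other ERK-induced transcripts 0.80, and the immediate early and stress genes -0.77.

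Transcripts of other cell types also differed between the groups. Of 12 endothelial markers 11 were lower in K-Ras Mll4-/- tumours. At an unadjusted quasi-likelihood p under 0.05, 10 were lower, against 10.4% of all genes. The 12 markers summed to 5422 and 4240 CPM against 8646 and 8291 CPM. None of the 12 was at 0, and their median log2 fold change was -0.79. Pecam1 was at 944 and 744 CPM against 1359.9 and 1332 CPM, and Cdh5 at 777 and 642 CPM against 1016 and 1360.45 CPM. Of 10 fibroblast markers 9 were lower, summing to 877 and 896 CPM against 2530 and 1188 CPM, and none was at 0. Of 84 marker genes tested in all, the edgeR quasi-likelihood test called 0, 7 were higher and 28 lower at an unadjusted p under 0.05, and DESeq2 called 4 higher and 23 lower. Over all genes 11.4% were higher and 10.4% lower at that p, and DESeq2 called 5.21% higher and 5.12% lower. Of 9 alveolar type 1 markers 6 were higher and 3 lower. The lower ones included Ager, at 211 and 157 CPM against 340 and 448 CPM. The median log2 fold change was 0.46 for these 9 markers. It was -1.33 for 7 club cell markers and -2.37 for 8 ciliated cell markers, but -0.13 (3 of 7 higher) and -0.82 without K-Ras replicate 2. With all 4 samples it was 0.008 for the 11 alveolar type 2 markers and 0.056 for 12 leukocyte markers. For 9 smooth muscle and pericyte markers it was -0.42. With 1 sample left out these medians ranged from -0.33 to 0.29, from -0.43 to 0.59 and from -0.40 to -0.14, in that order. Of the 6 mesothelial markers 4 passed the count filter, 2 higher and 2 lower, with a median of 0.74. All 6 summed to 494 and 833 CPM in K-Ras Mll4-/- tumours and to 100 and 209 CPM in K-Ras tumours. Most of each sum came from the 2 higher genes. Msln was at 120 and 221 CPM against 13.8 and 17.0 CPM, and Krt19 at 370 and 609 CPM against 78.4 and 187 CPM. The 2 lower genes were Upk1b (log2 fold change -1.18) and Lrrn4 (-0.40). With 1 sample left out the mesothelial median ran from -1.16 (without K-Ras Mll4-/- replicate 1) to 0.99 (without K-Ras replicate 2). Each such fit filtered the genes anew, so these medians need not cover the same 4 genes. Of the 6 red blood cell genes 2 passed. In tissue of mixed cells, fewer cells of a type and less RNA per cell cannot be told apart, and the part of cell content in the differences of the feedback genes was not tested.

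The 3 genes of the pathway lists whose pattern lay nearest to the mean of the 10 genes were Sos1, Dusp16 and Fgfr2, at Euclidean distances of 0.105, 0.105 and 0.132 on the log2 scale over 4 samples, from 109 genes compared. The mean pattern itself, centred over the samples, was 0.09 and 0.24 in K-Ras Mll4-/- replicates 1 and 2 and -0.30 and -0.02 in K-Ras replicates 1 and 2. K-Ras replicate 1 was therefore the sample furthest from the other 3.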

How the data were processed

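The deposited files hold unnormalised counts of reads by gene symbol, 1 file per sample. STAR, HTSeq, CASAVA 1.4 and the build mm9 are named, without settings, per the submitters' processing notes. The annotation and strand setting are not given in the sources used here, so reads of antisense genes may be included. The 5 closing tally lines, 60.1% to 65.6% of all tallied reads, were left out. Groups and replicate numbers came from the sample titles. K-Ras Mll4-/- minus K-Ras was fitted over all genes and all 4 samples with edgeR 4.0.16 in R 4.3.3: filterByExpr, TMM scaling and the robust quasi-likelihood test, with Benjamini-Hochberg adjustment over 16001 genes and calls at an adjusted p under 0.05. The SE is the log2 fold change divided by the square root of F. DESeq2 1.42.0, limma-voom (limma 3.58.1), the likelihood ratio test, other scalings and filters, single samples left out, and offsets for GC content and length (mgcv 1.9.3, GENCODE M21) were alternatives. The fits were tested on simulated counts. The counts of replicates differed by a chi-square of 48.9 and 129 per gene, against 1 for sampling noise, so they were not repeat counts of 1 library.

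The genes and lists were chosen with earlier results of these data known. Named from each list were called genes or, with none called, the 2 largest differences on the log2 scale. The 3 genes nearest in pattern are also named. Cell marker lists are given by summed levels, counts and medians. The first 2 endothelial markers, the CD45 gene Ptprc, Ager and the mesothelial markers that passed the filter are named as examples. No list was tested as a set. Protein sequences were not used here. The result of 1 gene of the cascade list is not reported here.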

Additional observations from a re-analysis of the deposited data

How the results depend on the processing

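The count of called genes over the whole table was 6 and depended on the test and the filter: it was 44 without a count filter, 1620 with DESeq2, 1503 with the likelihood ratio test and 0 with limma-voom, where the cause was not tested. With 1 sample left out it was 528 without K-Ras replicate 1 and 0 without each of the other 3. Of the 10 feedback and PEA3 genes, DESeq2 called 2 and the likelihood ratio test 1, and the other 14 of 16 alternatives called 0. Of the wider pathway genes, 29 were called by DESeq2, 27 by the likelihood ratio test and 0 to 2 with 1 sample left out. Of the log2 fold changes of the 10 genes, only that of Dusp6 changed sign, which was -0.035 without K-Ras replicate 1 and reached 0.28 without K-Ras replicate 2. A fit without 1 sample has 1 residual degree of freedom, and its lone sample is assumed to vary like the other group. Same-numbered samples deviated together weakly (r = 0.213 across genes) and the labels do not say what a number shares. With the replicate number as a block, 217 genes, 0 of the 10 genes and 4 of the wider pathway genes were called, and adding GC and length offsets to the block gave 141, 0 and 1. Each of the 10 genes had at least 250 reads per sample, and the part of read depth in the calls was not tested.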
